A study of Arabidopsis thaliana with 24 samples.

Results

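Transcripts in the leaf blades of Arabidopsis thaliana plants watered without any feeding were compared between the fifth and the fourth week after sowing. The arrays were chosen by their titles: 2 arrays of 5 weeks (5W-Control) and 2 arrays of 4 weeks (4W-Control), 4 of the 24 arrays of the series. All plants were wild type of the Columbia-0 accession, grown with 3 plants to a pot in soil and vermiculite at 22 °C with 16 h light and 8 h dark. In the series, pots stood once a week in 25 ml of solution from the first week to the fifth, and both groups compared here received water alone. The other blades, 12 arrays, came from plants fed glutathione, either oxidized (GSSG, 1 mM) or reduced (GSH, 2 mM), or NH4NO3 at 3 mM, harvested at the same 2 ages with 2 arrays per group. At either age the second and the third fully expanded blade from the top were taken, so the harvests hold leaves of the same rank from different plants, not one leaf followed over a week. The titles number 2 replicates in each group, and nothing says that they came from separate pots or plants. The p-values rest on the spread between replicate arrays over all 24 arrays of the series, and that spread may be technical. Those arrays include whole aerial parts taken at 3 weeks, a different tissue.

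A rosette leaf that has stopped expanding passes through a period as a source of sugars before its chloroplasts are dismantled and its nitrogen is exported. Over that period the genes of growth and of chloroplast assembly usually fall, while genes of recycling, stress and secondary metabolism can rise. Anthocyanins, the red and purple flavonoids of the vacuole, are known to build up in rosettes short of nitrogen or phosphate, or rich in sugar. Glutaredoxins of the CC type, small redox proteins of land plants that can use glutathione, include members known to follow nitrate supply.

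The deposited arrays shared one scale, with a trimmed mean between 500.044 and 500.055 on all 24, so the values below are signals on a linear scale that compare a transcript with the rest of its sample. Among probe sets above the 40th percentile of signal, the 2 5W-Control arrays correlated at 0.969 and the 2 4W-Control arrays at 0.964, against 0.881 to 0.914 between harvests. On the actin control the 3' probe set exceeded the 5' one, a ratio that grows when RNA is degraded, by a factor of 2.98 and 3.06 in 5W-Control and 3.71 and 4.81 in 4W-Control. Over all blades it ran from 2.65 to 3.11 at 5 weeks and from 3.08 to 4.81 at 4 weeks, so it moved with the harvest. At 4 weeks it also moved with the replicate number, at 4.29 to 4.81 on the second arrays of the 4 solutions and 3.08 to 3.71 on the first. Its part in the results below was not tested. The same ratio of the GAPDH control was 1.202 and 1.14 in 5W-Control, against 1.203 and 1.34 in 4W-Control. Harvest day and any handling shared by a harvest cannot be told apart from age.

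Between the 2 ages 2421 of 22746 probe sets changed (10.6%; limma, Benjamini-Hochberg adjusted p under 0.05), 1111 of them higher at 5 weeks (4.88%) and 1310 lower (5.76%). Changes are given on the scale log2(signal + 16), which understates those of dim probe sets, and a fold only where both groups averaged at least 100. The falls were the larger changes: 883 fell by at least 1 on the log2 scale and 475 rose by as much, and 59 fell by at least 3 against 21 that rose by as much. The median change was 0.92 over the rises and -1.28 over the falls, beside -0.01 over all probe sets. With arrays centred on their medians 1206 probe sets were called higher and 1180 lower, while falls outnumbered rises in the other settings tried. No called probe set had overlapping arrays, a separation that 25.4% of all probe sets showed upwards and 24.9% downwards. The second 5W-Control array lay farther from 4W-Control than the first in 69.8% of rises and 66.6% of falls. Without that array 856 probe sets were called, without the first 4W-Control array 1482 and without the second 1451.

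**Figure D1:**
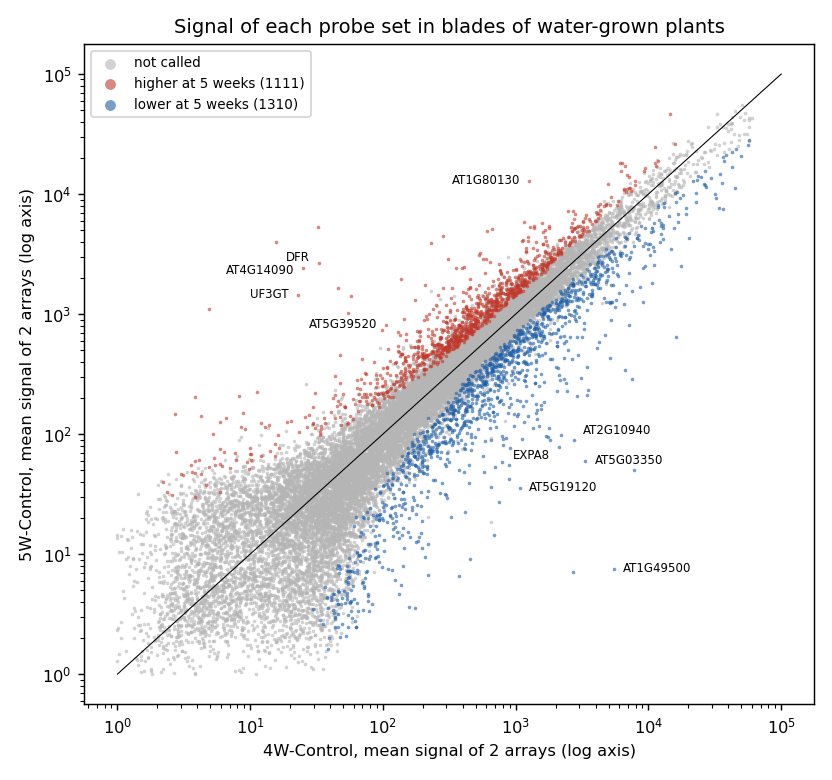
Mean signal of each of 22746 probe sets in 5W-Control (vertical, log axis) against 4W-Control (horizontal, log axis), 2 arrays each, with the diagonal of equal signal. The 1111 probe sets higher at 5 weeks lie above it and the 1310 lower ones below it; AT4G14090, DFR and UF3GT stand far above and AT1G49500 far below.

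Genes of the late steps of anthocyanin synthesis were near the floor of the arrays at 4 weeks and well expressed at 5 weeks. DFR, dihydroflavonol reductase, the enzyme that commits flavonoids to anthocyanins, read 3171 and 2104 in 5W-Control, against 33.6 and 32.0 in 4W-Control (log2 change 5.73, SE 0.97, adjusted p = 6.64e-04). AT4G14090, listed as the anthocyanin 5-O-glucosyltransferase, read 2157 and 2708 at 5 weeks, against 39.4 and 10.8 at 4 weeks (log2 change 5.98, SE 0.74, adjusted p = 3.06e-05). UF3GT, the enzyme that adds xylose to the anthocyanin glucoside, read 1828 and 1081 at 5 weeks, against 4.59 and 41.2 at 4 weeks (log2 change 5.37, SE 0.80, adjusted p = 2.01e-04). In all 3 genes both 5-week arrays read at least 1081 while the 4-week arrays stayed under 50, under the 40th percentile of signal (107). AT5MAT, the anthocyanin malonyltransferase, read 256 and 194 at 5 weeks, against 11.4 and 11.1 at 4 weeks, a change of 3.13 (SE 0.65).

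The glycosyltransferases that serve flavonols as well changed less. UGT78D2, the flavonoid 3-O-glucosyltransferase, read 616 and 577 at 5 weeks, against 212 and 257 at 4 weeks, and was 2.54-fold higher at 5 weeks (adjusted p = 0.00443). UGT78D1, the flavonol 3-O-rhamnosyltransferase, read 644 and 541 at 5 weeks, against 397 and 225 at 4 weeks, 1.91-fold higher (adjusted p = 0.033). CHIL, a non-catalytic relative of chalcone isomerase, read 182 and 117 at 5 weeks, against 30.4 and 61.4 at 4 weeks, and did not pass the test (log2 change 1.44, adjusted p = 0.0842). Of the 17 listed genes of flavonoid and anthocyanin synthesis 7 were measured by a probe set of 1 gene; 6 rose and 0 fell, with a median of 3.13, where 4.27% of all 13286 measured genes rose, 5% fell and their median was -0.01. Leaving out any 1 of the 4 arrays left 5 or 6 of the 7 called. This list and the lists below were chosen with earlier results of these data known, so their counts are descriptions. None of the 18 listed regulators of the pathway was read by a probe set of 1 gene. At 3 weeks, in whole aerial parts of water-grown plants, DFR read 582 and 629, AT4G14090 381 and 364 and UF3GT 126 and 212, a different tissue that is not compared here.

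The other large rises included 3 genes with a symbol that are described here one by one. HIS1-3, a linker histone variant known for its induction by drought and abscisic acid, read 4244 and 5660.2 in 5W-Control, against 437 and 783 in 4W-Control, 8.12-fold higher (log2 change 3.03, SE 0.35, adjusted p = 1.37e-05). STZ, a zinc finger repressor of the salt and drought response, read 3354 and 2427 at 5 weeks, against 252 and 879 at 4 weeks, 5.11-fold higher (log2 change 2.55, SE 0.59, adjusted p = 0.00786). SHN3, a transcription factor of the clade that controls cuticle wax and cutin, read 126 and 174 at 5 weeks, against 8.56 and 9.09 at 4 weeks (log2 change 2.73, SE 0.57, adjusted p = 0.00375); its call was lost without the second 5W-Control array. The 4-week arrays of STZ lay far apart, and its call was lost without the first array of either group (adjusted p up to 0.134).

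Several bright rises had no symbol in the annotation used. AT1G80130 read 8923 and 16758 in 5W-Control, against 1038 and 1477 in 4W-Control, 10.2-fold higher (log2 change 3.29, SE 0.50, adjusted p = 2.30e-04). AT2G17710 read 4848 and 5435 at 5 weeks, against 587 and 739 at 4 weeks, 7.76-fold higher, and AT1G15410 read 1904 and 2947 at 5 weeks, against 394 and 389.6 at 4 weeks, 6.19-fold higher (adjusted p = 2.01e-04 and 6.49e-06). On the log2 scale the replicates of a group differed far less than the groups in these 3 loci. AT1G51380 read 163 and 132 at 5 weeks, against 3.79 and 1.64 at 4 weeks (log2 change 3.12, SE 0.52, adjusted p = 6.00e-04). AT5G38710 read 1040.3 and 788 at 5 weeks, against 95.3 and 195 at 4 weeks, 6.296-fold higher (adjusted p = 0.0159). AT5G39520 read 628 and 996 at 5 weeks, against 25.3 and 186 at 4 weeks, 7.69-fold higher (adjusted p = 0.0228). The 4-week arrays of AT5G39520 lay wide apart. It lost its call in 8 of 17 other settings, and AT5G38710 in 4 of 17, for both including those without either 5W-Control array or the first 4W-Control array.

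Several transcripts that were well expressed at 4 weeks were far lower at 5 weeks, with AT1G49500 near the floor on both arrays. AT1G49500 read 8.04 and 7.05 in 5W-Control, against 3427 and 7568 in 4W-Control (log2 change -7.76, SE 0.37, adjusted p = 1.81e-10). EXPA8, an expansin that loosens growing cell walls, read 129.6 and 27.5 at 5 weeks, against 2172 and 2089 at 4 weeks (log2 change -4.75, SE 0.49, adjusted p = 5.50e-06). BZIP61, a leucine zipper transcription factor, read 40.9 and 3.72 at 5 weeks, against 347 and 484 at 4 weeks (log2 change -3.67, SE 0.59, adjusted p = 4.23e-04). The 5-week arrays of EXPA8 and BZIP61 differed from each other by more than the 4-week arrays did, and all lay below them.

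Loci without a symbol made up the rest of the 15 largest falls. AT5G03350 read 107 and 12.2 in 5W-Control, against 2452 and 4242 in 4W-Control, a change of -5.78 (SE 0.62). AT5G19120 read 38.2 and 32.4 at 5 weeks, against 631 and 1524 at 4 weeks, a change of -4.29 (SE 0.53). AT5G12940 read 3.73 and 14.4 at 5 weeks, against 413 and 494 at 4 weeks, a change of -4.26 (SE 0.56). All 3 had 4-week arrays of at least 413 and a 5-week mean under 100. AT3G08030 read 112 and 78.2 at 5 weeks, against 2144 and 1364 at 4 weeks, a change of -3.98 (SE 0.29), with the smallest error of the 15. AT5G55450 read 108 and 115 at 5 weeks, against 2383 and 1169.5 at 4 weeks, 15.9-fold lower at 5 weeks (adjusted p = 1.20e-05). AT1G29670, still bright at 5 weeks, read 1162 and 448 at 5 weeks, against 8232 and 6017 at 4 weeks, 8.85-fold lower (adjusted p = 3.42e-05). The changes of AT4G18970, AT5G50740, AT4G33666 and AT5G50335 were -4.10, -3.56, -3.37 and -3.34. AT2G10940 read 129 and 48.9 at 5 weeks, against 4101 and 1402 at 4 weeks, and lost its call without the second 5W-Control array (adjusted p = 0.0541). AT2G20670, at 11.1 and 42.9 at 5 weeks, against 168 and 1327 at 4 weeks, had the widest pair of arrays on the log2 scale. Its call was lost without either 5W-Control array or the second 4W-Control array.

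**Figure D2:**
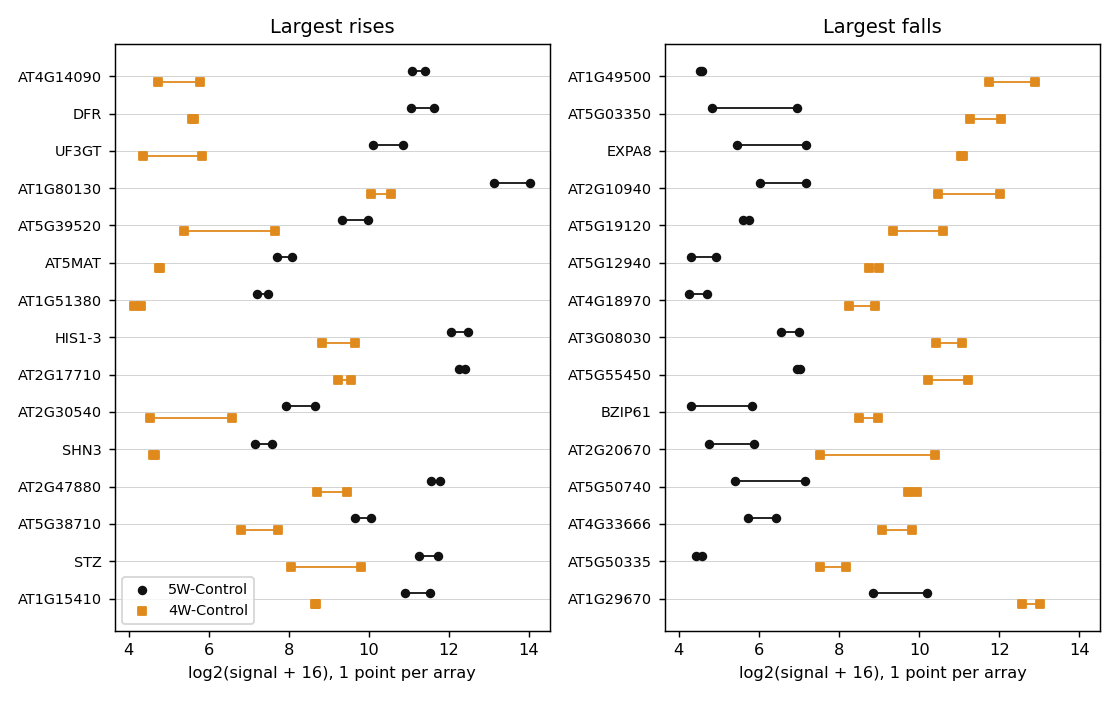
The 15 largest rises (left) and the 15 largest falls (right) among genes that met the naming rule, each array as 1 point on the log2(signal + 16) axis, with 5W-Control as black circles above 4W-Control as orange squares and a line joining the 2 arrays of a group. The rule admitted only genes whose 2 groups were apart, so their separation describes the choice. The widest pairs of 4-week arrays are those of AT2G20670, AT5G39520 and AT2G30540. The widest pair of 5-week arrays is that of AT5G03350.

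Of the 7 nuclear genes of light harvesting and the photosystems that could be read 4 fell. LHCB4.2, a minor antenna protein of photosystem II, read 13131 and 11576 in 5W-Control, against 28799 and 42947 in 4W-Control, 2.90-fold lower (log2 change -1.51, SE 0.30, adjusted p = 0.00271). PSAN and PSAE-1, subunits of photosystem I, were 2.62-fold and 1.97-fold lower (adjusted p = 0.00122 and 0.0213), and PSBW, a subunit of photosystem II, was 2.24-fold lower (adjusted p = 0.00142). Of the list 0 rose, and its median was -0.97, where 4.27% of all 13286 measured genes rose and 5% fell. LHCB4.1, PSBY and LHCB4.3 did not pass the test (log2 changes -0.72, -0.58 and -0.50). The list held 46 genes, and without the second 5W-Control array 2 of the 7 were called.

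Enzymes that make chlorophyll fell as well, where 5% of all 13286 measured genes fell and 4.27% rose. PORB, the light-dependent protochlorophyllide reductase, read 4078 and 2916 in 5W-Control, against 14569 and 14742 in 4W-Control, 4.19-fold lower (log2 change -2.08, SE 0.24, adjusted p = 1.41e-05). CHLM, which methylates magnesium protoporphyrin, read 2941 and 2855 at 5 weeks, against 6886 and 7273 at 4 weeks, 2.44-fold lower (adjusted p = 7.97e-04), and HEMB1, an early enzyme of tetrapyrrole synthesis, was 1.62-fold lower (adjusted p = 0.0151). Of 5 measured members 3 fell and 0 rose (median -0.83); CHLI2 and GSA1 had log2 changes of -0.83 and 0.06 without passing. In the Calvin cycle, which fixes carbon, SBPASE was 1.61-fold lower (adjusted p = 0.023), while PRK read 15047 and 10052 at 5 weeks, against 18472 and 18804 at 4 weeks (log2 change -0.60, adjusted p = 0.125). RCA, Rubisco activase, read 35029.7 and 35469 at 5 weeks, against 31109 and 45067 at 4 weeks, with overlapping arrays and a log2 change of -0.09 whose sign turned with quantile normalization and without the second 4W-Control array. Of 4 measured antioxidant enzymes 2 fell and 0 rose: TAPX, the thylakoid ascorbate peroxidase, was 2.596-fold lower (adjusted p = 1.57e-04) and GR, the organellar glutathione reductase, 1.55-fold lower (adjusted p = 0.0199). SAPX, an ascorbate peroxidase of the plastid stroma, read 1652 and 1967 at 5 weeks, against 1290.04 and 1324 at 4 weeks, and did not pass (log2 change 0.46, adjusted p = 0.129), and neither did GR1, another glutathione reductase (log2 change 0.37, adjusted p = 0.126).

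Transcripts encoded in the chloroplast genome were mostly lower too, few of them past the test. Of 69 measured, 8 fell, 0 rose and 59 were lower without regard to the test, with a median of -0.44; of all 13286 measured genes 5% fell and 6751 were lower. The falls included psbT, a small photosystem II subunit, at 1159 and 990.2 at 5 weeks, against 2867 and 2724 at 4 weeks (2.601-fold lower, adjusted p = 0.00493), and ndhG, of the NADH dehydrogenase-like complex, 2.65-fold lower (adjusted p = 0.0179). psaC, of photosystem I, and atpI, of ATP synthase, were 2.36-fold and 2.35-fold lower (adjusted p = 0.01 and 8.55e-04). rbcL, the large subunit of Rubisco, read 7104 and 6864 at 5 weeks, against 6210.1 and 5780.3 at 4 weeks, and did not pass (log2 change 0.22). The RNA was labelled with a kit that primes on poly(A) tails, which in chloroplasts mark RNA for decay, so these signals need not follow the amount of intact transcript. The group was counted after values had been seen. The count was 2 without the second array of either group and 18 with a number in the titles, of unstated meaning, as a block.

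A family of wall enzymes, the pectate lyase-like proteins, which cut pectin, changed in several members. Among all 13286 measured genes 5% fell and 4.27% rose. AT4G24780 read 201 and 149 in 5W-Control, against 1844 and 1238 in 4W-Control, 8.80-fold lower (log2 change -3.01, SE 0.39, adjusted p = 4.88e-05). AT3G07010 read 196 and 148 at 5 weeks, against 1185 and 1079 at 4 weeks, 6.57-fold lower, AT5G48900 was 6.16-fold lower and AT5G63180 4.96-fold lower (adjusted p = 2.68e-04, 1.77e-04 and 1.41e-05). In all 4 the groups lay well apart. Of 23 measured members 6 fell and 1 rose, with a median of -0.40; the family was listed after the values had been seen, so its count is a description. The one that rose, AT4G13710, was dim (44.4 and 87.2 at 5 weeks, against 10.4 and 13.9 at 4 weeks) and lost its call without the second 5W-Control array or either 4W-Control array.

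Expansins did not move together, where 4.27% of all 13286 measured genes rose and 5% fell. Of 14 measured 1 rose and 2 fell (median -0.22): EXPA4 read 749 and 721 in 5W-Control, against 305 and 273 in 4W-Control, 2.54-fold higher (adjusted p = 0.00109), while EXPA8, described above, and EXPA9 fell, the last reading 71.9 and 79.2 at 5 weeks, against 142 and 256 at 4 weeks (log2 change -1.18, SE 0.36, adjusted p = 0.0391). Among 9 xyloglucan endotransglucosylases, which remodel hemicellulose, 0 passed limma's test in either direction and 2 had an unadjusted p under 0.05; 8 were lower, with a median of -0.57, where 6751 of all 13286 genes were lower, and XTH32 had the largest change, -1.13 (adjusted p = 0.0822). Growth and development genes measured one by one included STOMAGEN, a secreted peptide of young mesophyll that promotes stomata, which read 2.28 and 20.2 at 5 weeks, against 212 and 182 at 4 weeks (log2 change -3.05, SE 0.39, adjusted p = 4.88e-05). PRL, the MCM7 subunit of the replication helicase, read 50.5 and 25.6 at 5 weeks, against 128 and 144 at 4 weeks (log2 change -1.53, SE 0.30, adjusted p = 0.00265), and IAA29, an auxin-induced repressor, read 42.0 and 57.0 at 5 weeks, against 182 and 211 at 4 weeks (log2 change -1.70, SE 0.43, adjusted p = 0.0144). RR16, a cytokinin-induced response regulator of type A, was 3.68-fold higher at 1215 and 2129 at 5 weeks, against 554 and 354 at 4 weeks (adjusted p = 0.0115). Each was the one measured member of its list that passed the test, and 1 of 20 listed cell division genes was measured.

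The nitrogen genes that could be read changed in both directions, where 4.27% of all 13286 measured genes rose and 5% fell. NRT2.5, which carries nitrate with high affinity and is known to respond to nitrogen shortage, read 219 and 209 in 5W-Control, against 31.0 and 68.8 in 4W-Control (log2 change 1.86, SE 0.50, adjusted p = 0.0204). AT2G26690, the transporter NPF6.2 of the NRT1/PTR family, read 179 and 146 at 5 weeks, against 453 and 627 at 4 weeks, 3.32-fold lower (adjusted p = 6.91e-04). AT1G25550 and AT1G68670, listed as the GARP factors HHO3 and HHO2 that belong to the nitrate response, both fell. AT1G25550 read 163 and 157 at 5 weeks, against 1069 and 1811 at 4 weeks, 9.02-fold lower (log2 change -3.003, SE 0.25, adjusted p = 3.69e-07). AT1G68670 read 230.0 and 295 at 5 weeks, against 671 and 1283 at 4 weeks, 3.72-fold lower (adjusted p = 0.00119). In both the groups were apart by more than their arrays. Of 24 listed genes of nitrogen assimilation and response 3 were measured, and 2 of them fell; the third, AT3G25790, had a log2 change of -0.81 (adjusted p = 0.285).

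APS4 and APS3, isoforms of ATP sulfurylase, the first enzyme of sulfate assimilation, rose. APS4 read 4321 and 5239.9 in 5W-Control, against 3076 and 3368 in 4W-Control, 1.48-fold higher (adjusted p = 0.0324). APS3 read 1439.5 and 1986 at 5 weeks, against 1168 and 903 at 4 weeks, 1.65-fold higher (adjusted p = 0.0447). AT1G04770, listed among the genes of sulfur deficiency, read 678 and 671 at 5 weeks, against 364 and 345 at 4 weeks, and did not pass (log2 change 0.90, adjusted p = 0.0589). Of 5 measured members of the list 2 rose and 0 fell (median 0.56), where 4.27% of all 13286 measured genes rose and 5% fell.

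The CC-type glutaredoxins split. AT2G47880 read 2986 and 3512 in 5W-Control, against 398 and 679.7 in 4W-Control, 6.03-fold higher (log2 change 2.601, SE 0.57, adjusted p = 0.00522), and AT4G33040 read 1541 and 2411 at 5 weeks, against 415 and 489 at 4 weeks, 4.37-fold higher (adjusted p = 3.44e-05). AT2G30540 read 387 and 228 at 5 weeks, against 79.2 and 7.22 at 4 weeks (log2 change 2.74, SE 0.55, adjusted p = 0.00273) and AT3G62960 read 238 and 337 at 5 weeks, against 70.2 and 66.1 at 4 weeks (log2 change 1.83, SE 0.55, adjusted p = 0.0356). AT5G18600 went the other way at 1023 and 1524 at 5 weeks, against 2948 and 3501 at 4 weeks, 2.53-fold lower (adjusted p = 0.00237). Of 16 measured members 4 rose and 1 fell, with a median of -0.04, where 4.27% of all 13286 measured genes rose and 5% fell. The call of AT2G47880 was lost without the second 5W-Control array or the first 4W-Control array, and that of AT2G30540 without the second 4W-Control array. The number that rose was 2 without the second 5W-Control array or without either 4W-Control array. Several members of this family are near-identical neighbours, and probes can cross-hybridize among them.

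Genes named for leaf senescence did not pass the test. SAG101 read 236 and 227 in 5W-Control, against 353 and 363 in 4W-Control (log2 change -0.60, adjusted p = 0.284), WRKY53, a regulator of senescence onset, had overlapping arrays at 204 and 302 at 5 weeks, against 265 and 462 at 4 weeks, and AT2G25625 read 329 and 690.4 at 5 weeks, against 129 and 153 at 4 weeks (log2 change 1.66, adjusted p = 0.0784). Of 6 measured members of 28 listed 0 rose and 0 fell in limma's test, 1 had an unadjusted p under 0.05, and the median was -0.26. The rest of the list was not read by a probe set of 1 gene. Of 14 listed autophagy genes, which serve recycling, 9 were measured, all of them of the ATG8 family. Among these 2 rose and 0 fell, where 4.27% of all 13286 measured genes rose and 5% fell. ATG8B and ATG8G, ubiquitin-like proteins of the autophagosome membrane, were 2.42-fold and 1.76-fold higher (adjusted p = 0.0288 and 0.00786), and the other 7 of 9 measured autophagy genes did not pass, ATG8E being lower at 893 and 672 at 5 weeks, against 1319 and 1239.5 at 4 weeks (adjusted p = 0.274).

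The vacuolar processing enzymes, cysteine proteases that mature vacuolar proteins, held the brightest rise among those described. GAMMA-VPE, the main form of leaves, read 48161 and 44774 in 5W-Control, against 11325 and 17634 in 4W-Control, 3.21-fold higher (log2 change 1.72, SE 0.36, adjusted p = 0.00405). BETA-VPE, known mainly from seeds, read 1306 and 1439 at 5 weeks, against 167 and 482 at 4 weeks, 4.23-fold higher (log2 change 2.199, SE 0.39, adjusted p = 9.34e-04). ALPHA-VPE and DELTA-VPE were dim and did not pass (log2 changes -0.70 and 1.16). ALN, allantoinase, which opens the ring of allantoin in purine breakdown, read 2048 and 2314 at 5 weeks, against 560.3 and 612 at 4 weeks, 3.72-fold higher (adjusted p = 6.88e-04), while AAH of the same path did not pass (log2 change 0.37). These 2 lists were also written after values had been seen. APL3, a subunit of the starch enzyme ADP-glucose pyrophosphorylase, was 2.58-fold higher at 1337 and 1401 at 5 weeks, against 626 and 437 at 4 weeks (adjusted p = 0.00112).

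Families of secondary metabolism and detoxification were mixed, where 4.27% of all 13286 measured genes rose and 5% fell. Of 47 UDP-glycosyltransferases with a UGT symbol 8 rose and 1 fell, with a median of 0.15; UGT78D1 and UGT78D2 are counted among them, and the rest of the rises included UGT72E1 at 2504 and 2153 at 5 weeks, against 776 and 1118 at 4 weeks (2.46-fold, adjusted p = 7.88e-04) and UGT71C3, dim at 4 weeks, with 111 and 143 at 5 weeks, against 30.4 and 7.13 at 4 weeks (log2 change 2.12, SE 0.61, adjusted p = 0.0308). The count of rises lay between 2 and 5 with any 1 array left out and was lowest without the second 5W-Control array. Beta-glucosidases, which release sugars and aglycones, gave 0 rises and 4 falls of 20 (median -0.20), among them BGLU40 at 81.8 and 86.1 at 5 weeks, against 430.5 and 309 at 4 weeks and BGLU44 at 5476 and 4888 at 5 weeks, against 12043 and 13849 at 4 weeks (adjusted p = 0.00391 and 1.91e-04). Tau glutathione S-transferases gave 1 rise and 2 falls of 11: GSTU16 was 2.24-fold higher and GSTU18 2.699-fold lower (adjusted p = 0.00162 and 0.00155). Cytochromes P450 gave 0 rises and 1 fall of 26 (3.85%, not above the share of all genes), CYP71B23 at 2.75-fold lower (adjusted p = 0.0188). Of 6 genes of abscisic acid, drought and cold, of 5 of glucosinolate synthesis and of 6 WRKY factors, 0 passed limma's test in either direction. At an unadjusted p under 0.05 there were 2, 2 and 0 of them, where 5499 of all 22746 probe sets had such a p.

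**Figure D3:**
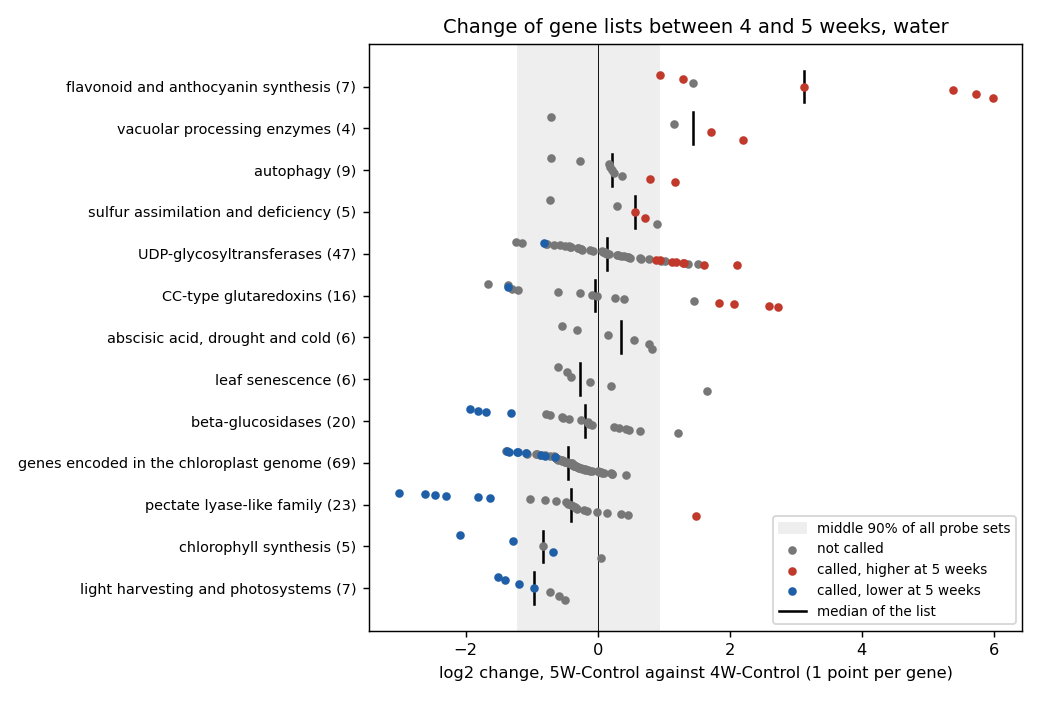
Change of each measured gene of 13 lists on the log2(signal + 16) scale, 5W-Control against 4W-Control, 1 point per gene with the number of genes in brackets, red where called higher, blue where called lower and grey where not called; the black bar is the median of the list and the grey band holds the middle 90% of all probe sets. The flavonoid and anthocyanin list lies to the right with a median of 3.13, and the light harvesting and chlorophyll lists lie to the left with medians of -0.97 and -0.83.

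Markers of other tissues were checked for the blades. The mesophyll genes RCA, above, and HPR, the peroxisomal hydroxypyruvate reductase at 13161 and 8129 in 5W-Control, against 13491 and 13709 in 4W-Control, were bright on all 4 arrays. The meristem marker CLV3 read 4.56 and 2.098 at 5 weeks, against 8.53 and 6.46 at 4 weeks, and the root marker PYK10 read 44.8 and 24.6 at 5 weeks, against 3.48 and 22.7 at 4 weeks. The trichome marker TRY read 56.3 and 38.6 at 5 weeks, against 27.3 and 11.8 at 4 weeks. The stomatal lineage gene SPCH read 29.1 and 4.44 at 5 weeks, against 4.1 and 33.7 at 4 weeks, and MUTE read 1.49 and 30.4 at 5 weeks, against 44.5 and 5.46 at 4 weeks. All 5 of these stayed under 100 on every array, and none passed the test. FMA, of late guard cell development, read 273 and 272 at 5 weeks, against 265 and 228 at 4 weeks, and did not pass (log2 change 0.14). STOMAGEN, the fourth measured gene of the guard cell and stomatal list, fell by 3.05 on the log2 scale, as given above. No listed marker of flowers or of the vasculature was measured, so a share of those tissues was not tested. In whole blades fewer cells of a type and less RNA per cell cannot be told apart.

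The blades of fed plants, 12 arrays outside the 2 groups compared above, were set beside those on water. All 24 arrays shared 1 estimate of the spread, so the calls above drew on the fed arrays and the 3-week arrays too. The age change in water and the mean age change under the 3 fed solutions correlated at 0.778 (Pearson) across the 13647 probe sets above the 40th percentile; the value was 0.774 for GSSG, 0.668 for GSH and 0.667 for NH4NO3, across probe sets, which are not independent, and on arrays whose harvests coincided. Of the 1111 rises 1077 were also higher at 5 weeks in the fed mean, and of the 1310 falls 1236 were also lower, where 11426 of all 22746 probe sets were higher. The median change in the fed mean was 0.58 over the rises and -0.68 over the falls, smaller than in water, where the members were selected. GAMMA-VPE, HIS1-3 and TAPX had nearly equal changes in water and in the fed mean (1.72 and 1.79, 3.03 and 2.82, -1.36 and -1.36), while the light harvesting list had medians of -0.97 and -0.70.

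The anthocyanin genes had larger age changes in water than in the fed mean, by differences whose call depended on the fit. With GSSG, AT4G14090, DFR and UF3GT rose past limma's test as well (3.76, 3.64 and 2.68, adjusted p = 0.00234, 0.0177 and 0.032). AT5MAT did not (1.25, adjusted p = 0.239). With GSH or NH4NO3 none of them passed, AT4G14090 changing by 2.48 and 2.35. DFR, at 3171 and 2104 in 5W-Control, read 2174 and 50 with GSSG, 43.2 and 6.01 with GSH and 67.7 and 311 with NH4NO3. The age change of DFR was 5.73 in water and 1.92 in the fed mean (difference 3.82, SE 1.12, adjusted p = 0.229). AT4G14090 changed by 5.98 in water and 2.86 in the fed mean (difference 3.12, SE 0.85, adjusted p = 0.179), and UF3GT by 5.37 and 1.35 (difference 4.02, SE 0.92, adjusted p = 0.0739). None of these 3 differences from the fed mean passed, while by solution that of UF3GT from GSH did (5.67, adjusted p = 0.0466). With the replicate number within each harvest as a block, the differences from the fed mean of UF3GT and AT5MAT passed (adjusted p = 0.00479 and 0.0227) and those of DFR and AT4G14090 did not (adjusted p = 0.0883 and 0.099). The list's median was 3.13 in water and 0.60 in the fed mean. The first of the GSSG arrays lay within the range of the water arrays for DFR and the second far below it, so the fed values themselves spread widely.

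**Figure D4:**
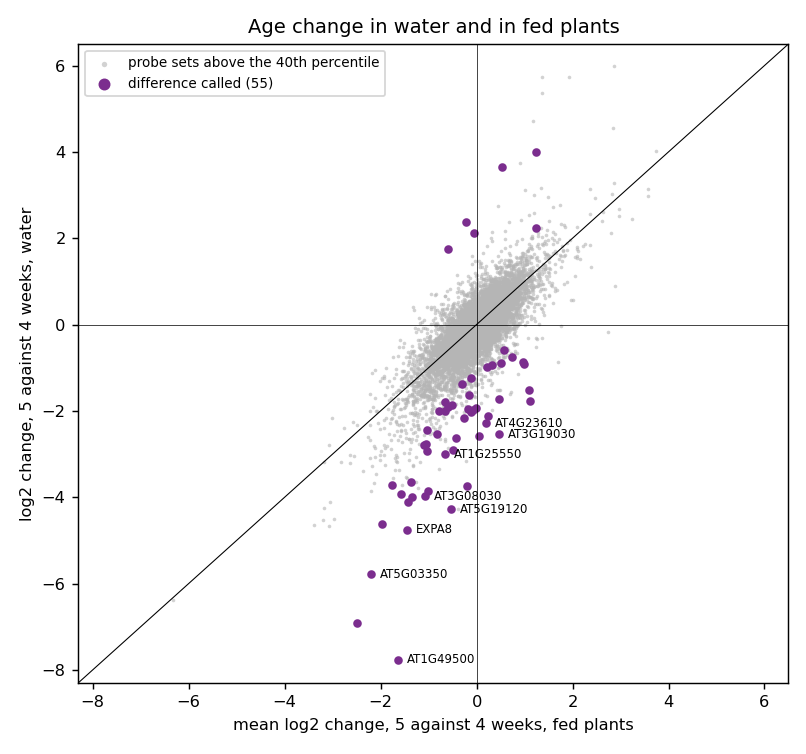
Log2 change from 4 to 5 weeks in water (vertical) against the mean log2 change in GSSG-, GSH- and NH4NO3-fed plants (horizontal) with the diagonal of equal change; grey points are probe sets above the 40th percentile of signal. The 55 probe sets whose change differed between water and the fed mean are purple; 49 lie below the diagonal, with AT1G49500 lowest, and 6 above it.

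The age change in water differed from the mean age change in fed blades for 55 probe sets (0.242%; limma, adjusted p under 0.05), 49 of them lower in water (0.215%) and 6 higher (0.0264%). By solution, against the same water arrays, 2 differed from GSSG (0.00879%), 35 from GSH (0.154%, with 0.0176% higher in water) and 39 from NH4NO3 (0.171%, with 0.0176% higher); these counts share the water arrays. With the replicate number within each harvest as a block, 285 probe sets differed from the fed mean, 244 lower and 41 higher in water. Of the 55, 21 belonged to 1 gene, and the 6 higher ones were not named here. In each of the 8 genes named by rule both 5W-Control arrays lay below all 6 fed arrays of 5 weeks. The genes were chosen by a difference that uses these arrays, so the separation describes the choice and adds no evidence. The share of all probe sets separated in this way was not counted. AT1G49500, at 8.04 and 7.05 in 5W-Control, read 263 and 280.4 with GSSG, 1325 and 836 with GSH and 3813 and 4429 with NH4NO3, while at 4 weeks all blades read at least 1990.4 (difference -6.12, SE 0.43, adjusted p = 1.91e-07). AT1G25550, listed as the nitrate-response factor HHO3, read 163 and 157 in 5W-Control, 354 and 533 with GSSG, 837 and 721 with GSH and 1353 and 1206 with NH4NO3 (difference -2.34, SE 0.29, adjusted p = 4.21e-04). In both genes the 5-week signals were lowest in water and highest with NH4NO3.

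The other 6 genes named for a difference fell in water as well. Against GSSG alone, the difference passed in limma for AT1G49500 (adjusted p = 7.28e-04) and for none of the other named genes (0.0802 to 0.542). That of AT5G03350 passed against NH4NO3 (adjusted p = 0.0078) and not against GSH (0.372). The differences given below are from the fed mean. EXPA8 read 129.6 and 27.5 in 5W-Control, 290.4 and 349 with GSSG, 1141 and 523 with GSH and 1286 and 348 with NH4NO3 (difference -3.30, SE 0.56, adjusted p = 0.0118). AT5G19120 changed by -4.29 in water and -0.54 in the fed mean, and AT3G08030, with a difference of -2.90 and adjusted p = 2.00e-04, by -3.98 and -1.08. AT3G19030 fell in water, by 2.55 on the log2 scale, and changed by 0.46 in the fed mean (difference -3.01, SE 0.49, adjusted p = 0.00683). AT5G03350 changed by -5.78 and -2.19, and AT4G23610 by -2.28 and 0.19. The fed mean joined unlike solutions. AT5G03350 changed by -3.12 with GSSG, -3.20 with GSH and -0.26 with NH4NO3, and AT5G19120 by -1.99, 0.23 and 0.15. With GSSG, AT1G49500, AT5G03350, EXPA8, AT5G19120, AT3G08030 and AT1G25550 also fell past limma's test, and AT3G19030 and AT4G23610 did not. The 6 falls were -3.16, -3.12, -2.41, -1.99, -1.56 and -1.44 (adjusted p = 3.19e-05, 0.00252, 0.00296, 0.0173, 0.00152 and 9.42e-04). With GSH, AT5G03350 fell past that test (adjusted p = 0.00671) and AT3G19030 rose past it (1.62, adjusted p = 0.0326). The differences of AT1G49500, AT3G08030 and AT1G25550 passed in all 17 other settings tried, and each of the other 5 lost its call in at least 3, always including those without the second 5W-Control array and without the second 4W-Control array.

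**Figure D5:**
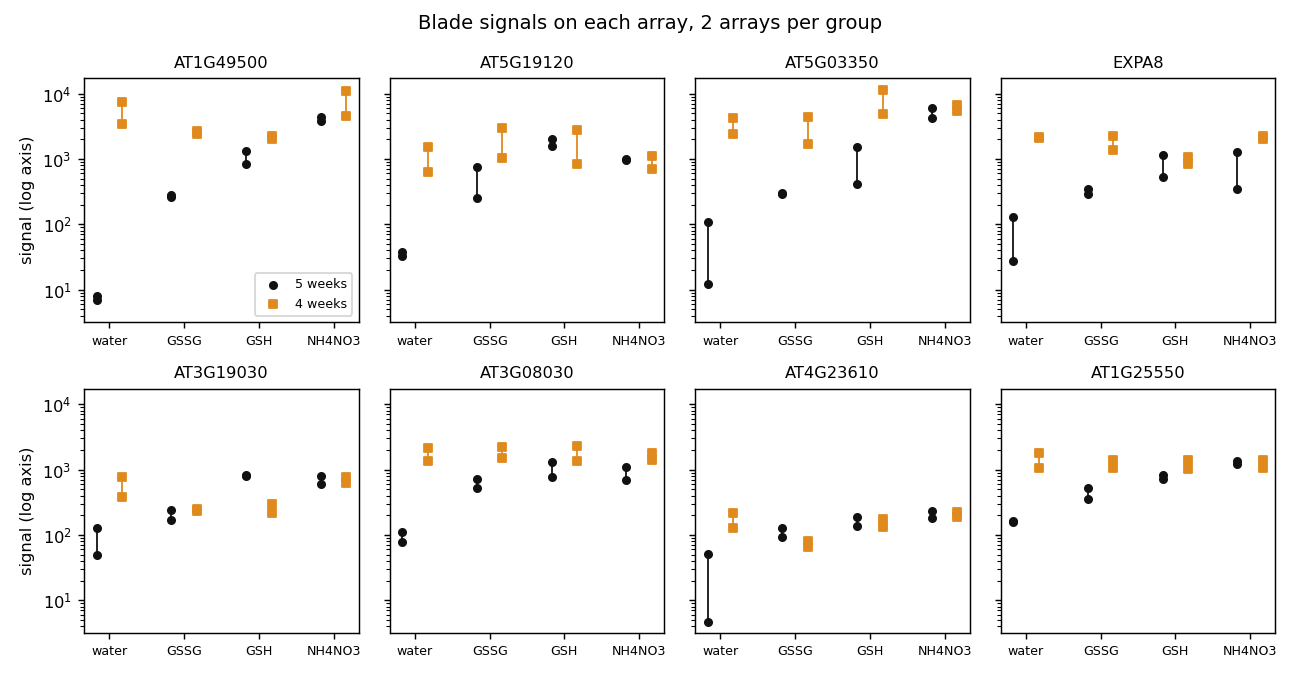
Signal on each blade array (log axis) of the 8 genes named for a difference, with 5 weeks as black circles left of 4 weeks as orange squares under water, GSSG, GSH and NH4NO3, 2 arrays per group. The 5-week arrays of water are the lowest of the 5-week arrays in each panel, while the 4-week arrays of water lie within or close to the range of the fed ones.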

How the data were processed

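Signals of 22746 probe sets, without 64 control probe sets, on 24 ATH1 arrays of 12 groups with 2 arrays each were used as deposited. They are intensity values on a linear scale, made with Affymetrix Expression Console per the submitters' processing notes; for its version and its way of summarizing probes, nothing is given in the sources used here. RNA was labelled with a 3' IVT kit, per the labels' protocols. Here log2(signal + 16) was fitted with limma 3.58.1 in R 4.3.3, with all 12 groups sharing one trended estimate of the spread (12 residual degrees of freedom, 7.39 prior), and p-values were adjusted over all 22746 probe sets by the Benjamini-Hochberg method with a threshold of 0.05. The age change in water was also tested against the mean age change under the 3 fed solutions.

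Of the probe sets 13513 had 1 gene in the platform annotation, 503 several and 8730 none listed there; 13436 matched the RefSeq gene table, which supplied current symbols, and a gene with several probe sets was read by 1 of them. Named are the 15 largest rises and falls past the threshold, up to 4 members of each list and the 8 genes with the largest differences past the threshold. All have 1 gene to the probe set. The largest rises, falls and differences also had a signal above the 40th percentile in the higher group and the arrays of 5W-Control and 4W-Control apart. List members needed neither. UGT78D1, UGT78D2, CHIL and other members named beyond that, and all genes encoded in the chloroplast genome, were chosen after their values were seen. The members and lists were chosen with earlier results of these data known. Same-numbered 5W-Control and 4W-Control arrays deviated from their group means with a correlation of 0.0849, so replicate numbers were not taken to pair the 2 ages. Within a harvest, same-numbered arrays of different solutions deviated together in every pair of solutions (0.117 to 0.399 at 5 weeks, 0.242 to 0.394 at 4 weeks), so the difference from fed plants is also given with that number as a block. With 2 arrays per group, their number limits the precision.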

Additional observations from a re-analysis of the deposited data

Results flagged for a closer look

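The age change in water differed from the mean age change in fed plants, by a test of that difference in limma, for 55 probe sets. Among the genes named for it, the difference (water minus the fed mean, log2) was -6.12 for AT1G49500, -3.75 for AT5G19120 and -3.59 for AT5G03350. It was -3.30 for the expansin EXPA8, -3.01 for AT3G19030 and -2.90 for AT3G08030. It was -2.47 for AT4G23610 and -2.34 for AT1G25550, listed as the nitrate-response factor HHO3. In these 8 genes the 5-week blades of water-grown plants had lower signals than all fed blades of that age, arrays that also served to choose them. Against GSSG alone, the difference passed in limma for AT1G49500 (adjusted p = 7.28e-04). It did not pass for the other genes named here (adjusted p from 0.0802 to 0.542).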

How the results depend on the processing

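The count of 2421 probe sets between the ages lay between 1771 and 2717 with quantile normalization, centring on array medians, a filter at the 40th percentile, a pseudocount of 1 or 64, another prior, a block of replicate or title number, only the 4-week and 5-week arrays, or without the 4 second replicates of 4 weeks; with only the 4 arrays compared it was 968, and with 1 of them left out it ran from 856 to 1819. In fits that leave 1 array in a group, that array is assumed to vary like the others. The count of 55 for the difference from fed plants was 22 with a prior without trend, 83 with the replicate number as a block, 194 with the title number as a block, 23 with only the 4-week and 5-week arrays and 35 without the second replicates of 4 weeks; it ran from 17 to 53 with 1 array left out, the lowest without the second 4W-Control array, 20 without the second 5W-Control array and 32 without the first 4W-Control array. The replicate block gave 2717 between the ages. With the replicate number within each harvest as a random block, added after seeing the data, 2586 were called between the ages, all 30 largest changes kept their call, and 146 differed from fed plants; as a fixed block it gave 285 for that difference and all 8 named genes passed. The cause of these moves was not tested. The change of RCA lay between -0.35 and 0.18 with 1 array left out; it reversed to 0.22 with quantile normalization and to 0.18 both without the second replicates of 4 weeks and without the second 4W-Control array. Over 110 named genes and these settings, 1618 of 1858 values kept direction and side of the threshold, 220 lost the call, 17 gained it and 3 reversed. The counts of list members under each setting were chosen after seeing the data: members that rose ranged from 5 to 7 in flavonoid synthesis and from 2 to 5 in CC-type glutaredoxins, and members that fell from 2 to 5 in light harvesting, from 2 to 4 in chlorophyll synthesis and from 4 to 6 among pectate lyases. With 2 arrays a group, small changes and dim genes are the least certain.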

Other observations

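Lists with 1 or 2 measured members gave no call in several further themes. In limma's test 0 genes passed among 1 of phenylpropanoid and lignin synthesis, 1 of chlorophyll breakdown, 2 of jasmonate synthesis and response, 1 of the circadian clock, 2 of iron deficiency and storage, 1 of heat shock and 2 of flowering time; the phenylpropanoid and the clock gene had an unadjusted p under 0.05, with log2 changes of -0.50 and 0.45. No listed gene of phosphate starvation or of salicylate and defence was measured. Of the 2421 probe sets that changed, 1248 belonged to 1 gene, 575 of them higher and 673 lower at 5 weeks, so much of the change lies in probe sets that are not named here.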
